A study of Mus musculus with 12 samples.

Results

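The 10 smooth muscle contractile genes described here are Acta2, Actg2, Myh11, Tagln, Cnn1, Smtn, Lmod1, Mylk, Myocd and Des. Most encode parts of the contractile apparatus, while Myocd encodes a regulator of the others and Des a filament protein of all muscle types. These 10 genes were taken by gene name from a table of 43346 genes, and all 10 were present and passed the low-count filter. Veins of mice were collected 7 days after surgery and their RNA was sequenced on an Illumina HiSeq instrument. The AVF-CKD group (n = 6 libraries) was the venous limb of the AVF after AVF-CKD surgery, and the sham group (n = 6 libraries) was the jugular vein after sham surgery. AVF and CKD are not spelled out in the labels and are read here as arteriovenous fistula and chronic kidney disease. The labels do not state strain, age or sex, nor whether a library held a single animal or pooled animals, so the tests measure the spread between these libraries. The groups differed in operation and vessel segment and, on this reading, in kidney disease, and these cannot be told apart.

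Smooth muscle cells of the vein wall contract when myosin II filaments pull on filaments of alpha and gamma actin. Calcium signals activate myosin light chain kinase, which phosphorylates the regulatory light chain of myosin and so starts the cycle, and calponin, transgelin, smoothelin and leiomodin bind the actin filament. Most genes of this apparatus are switched on by serum response factor (SRF) with its coactivator myocardin, through a DNA element called the CArG box. Loss of these transcripts is a textbook mark of smooth muscle cells that leave the contractile state, and a remodelling vein is a setting in which it is looked for.

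The promoters are shown because the CArG box is the known common element of these genes and the deposited table gives no other regulatory readout. Promoter windows of RefSeq (GRCm38.p6) were matched for 6 of the 10 genes (Acta2, Cnn1, Smtn, Lmod1, Des and Mylk), and the 250 bases before the transcription start were searched. Distances count from the start used for these windows, which for Acta2 and Cnn1 differs from the gene coordinates given below. The window of Myl9 (below) ends past the deposited gene start of 156775420. Because the CArG box reads the same on both strands, a single search covered both, and a looser form, with at most 1 G or C among the 6 middle bases, was searched as well. The strict form was found for none of the 6 genes, and the looser form for Acta2 alone, at 84 and 34 bases before the start. Of all 32851 promoter windows of that length, 1.47% held the strict form and 8.59% the looser one. Myl9, which encodes the regulatory light chain and whose levels followed those of Tagln most closely (below), held a strict match at 161 and one of only the looser form at 99 bases before its start. Cnn1, the contractile gene with the most negative fold change, held neither form. The 3 windows lie at chr19:34255374-34255623 on the minus strand (Acta2), chr2:156775214-156775463 on the plus strand (Myl9) and chr9:22099003-22099252 on the plus strand (Cnn1), with CArG-form letters in capitals.
Acta2: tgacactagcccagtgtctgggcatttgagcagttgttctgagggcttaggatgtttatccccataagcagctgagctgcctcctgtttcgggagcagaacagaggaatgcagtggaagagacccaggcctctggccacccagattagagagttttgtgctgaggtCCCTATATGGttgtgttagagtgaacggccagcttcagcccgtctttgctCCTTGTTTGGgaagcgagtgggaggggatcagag
Myl9: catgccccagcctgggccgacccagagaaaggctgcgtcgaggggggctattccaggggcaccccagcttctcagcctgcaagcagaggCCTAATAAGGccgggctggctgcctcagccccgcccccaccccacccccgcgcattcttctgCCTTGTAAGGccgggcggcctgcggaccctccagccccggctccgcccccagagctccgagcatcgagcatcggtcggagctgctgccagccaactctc
Cnn1: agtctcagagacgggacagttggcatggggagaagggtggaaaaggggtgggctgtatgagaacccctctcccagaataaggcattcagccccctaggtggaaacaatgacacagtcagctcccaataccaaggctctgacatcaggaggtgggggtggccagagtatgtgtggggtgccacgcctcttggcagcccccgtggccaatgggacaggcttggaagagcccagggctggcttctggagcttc
A match describes letters in this window and is not a measured binding site, and a window without a match says nothing of sites elsewhere.

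Total counts per library ran from 38653830 to 52003341 in AVF-CKD and from 43445591 to 60142016 in sham. Levels are given as CPM, a gene's count relative to the library's total count, with totals scaled by the trimmed mean of M-values (TMM). The edgeR quasi-likelihood test with Benjamini-Hochberg adjustment called 0 of 18965 genes at an adjusted p below 0.05 (0%), so 0 of the 10 contractile genes were called. An unadjusted p below 0.05 was found for 1772 genes (9.34%), 998 with higher and 774 with lower values in AVF-CKD (5.26% and 4.08%). DESeq2 called 51 genes higher and 30 lower, and limma voom with a weight for each library (weighted limma voom) called 0. Neither called a contractile gene.

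Most of the contractile genes had lower mean levels in the fistula vein, but none passed the test. Fold changes were negative for 7 of the 10, against 50.9% of all genes tested, and their median log2 fold change was -0.26, against -0.0025 over all genes. Cnn1, Actg2 and Tagln had an unadjusted p below 0.05 in this direction (3 of 10, against 4.08% of all genes) and none did in the other. This was not particular to them, since 3 of 11 endothelial, 3 of 5 myofibroblast and 5 of 8 fat genes (lists below) also passed with lower values. Gland and epithelial genes did so in 2 of 8 cases, and 0 of 9 fibroblast, 0 of 11 pericyte and 0 of 19 skeletal muscle genes did. AVF-CKD and sham libraries overlapped for each of the 10 genes (0.638% of all genes tested had groups that did not overlap). Summed over the 10 genes, levels ran from 1317 to 2422 CPM in AVF-CKD (median 2117) and from 1975 to 2729 CPM in sham (median 2510). Without Des the sums ran from 1127 to 1975 CPM in AVF-CKD (median 1679) and from 1536 to 2445 CPM in sham (median 2307). In whole veins, fewer cells that express these genes, of whatever type, and less of their RNA per cell cannot be told apart.

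**Figure D1:**
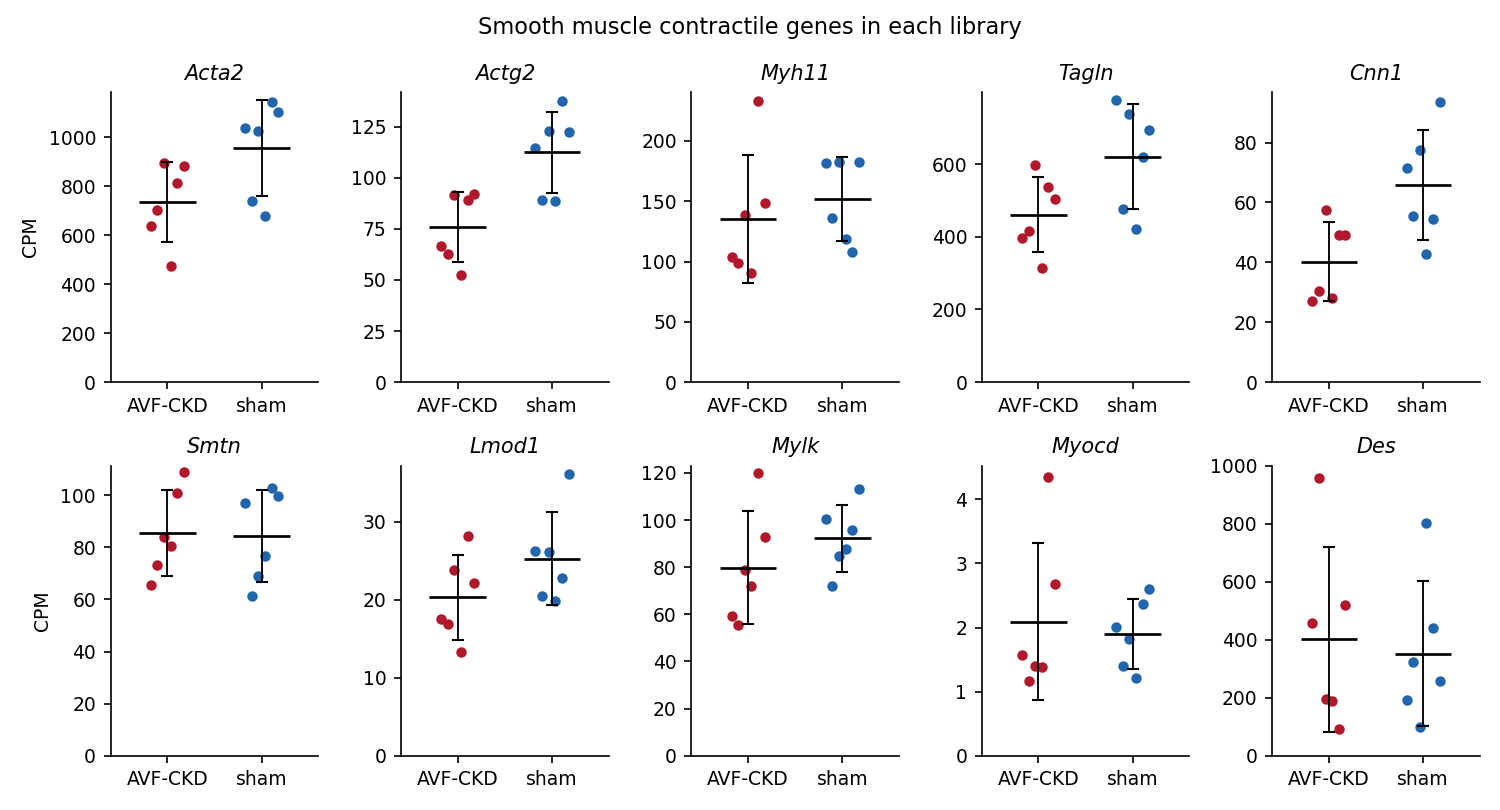
CPM (y axis, from 0) of the 10 contractile genes in the 6 AVF-CKD (red) and 6 sham (blue) libraries, with points in the order of the library numbers, a bar at the mean and whiskers of 1 SD. The groups overlap in every panel, and Des and Myocd have the widest spread.

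Per length, the genes covered more than 3 orders of magnitude, and the order was nearly the same in both groups. Acta2 stood at 412 CPM per kilobase ± 91.5 in AVF-CKD and 536 ± 110 in sham (SD, n = 6 each), and Tagln at 291 ± 65.3 and 391 ± 90.4 in the same order of groups. Des followed at 107 ± 85.0 in AVF-CKD and 93.8 ± 66.5 in sham, and Actg2 at 48.5 ± 11.0 and 72.0 ± 12.6, so that the spread of Des covered the level of Actg2. Myh11 (20.4 ± 8.0 in AVF-CKD, 22.9 ± 5.24 in sham), Smtn (19.5 ± 3.76 and 19.3 ± 4.04) and Cnn1 (17.0 ± 5.58 and 27.8 ± 7.81) lay within each other's spread in AVF-CKD, while in sham Cnn1 stood above Smtn by more than the SD of either. Mylk (7.85 ± 2.35 in AVF-CKD, 9.08 ± 1.40 in sham) and Lmod1 (5.14 ± 1.37 and 6.39 ± 1.51) were lower. Myocd was the lowest at 0.326 CPM per kilobase ± 0.192 in AVF-CKD and 0.295 ± 0.0841 in sham. It had 45 to 192 counts per library, against 620 or more for each of the other 9.

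Acta2 encodes smooth muscle alpha actin, the main actin of the vascular thin filament (ENSMUSG00000035783, GRCm38 chromosome 19, 34241090 to 34255336), and carries the CArG-form letters printed above. Its lowest, median and highest values were 473, 758 and 896 CPM in AVF-CKD and 678, 1031 and 1144 CPM in sham. All 6 AVF-CKD libraries lay below the sham median, and 4 sham libraries lay above every AVF-CKD library. The log2 fold change was -0.38 ± 0.18 (SE; 95% interval -0.76 to 0.0031; edgeR adjusted p = 0.535).

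Actg2 encodes gamma actin, best known from the gut and other hollow organs and also present in vessels (ENSMUSG00000059430, chromosome 6, 83512905 to 83536265). It ran from 52.6 over a median of 77.7 to 92.1 CPM in AVF-CKD and from 88.6 over 118 to 138 CPM in sham. Again all 6 AVF-CKD libraries lay below the sham median, and the groups overlapped between 88.6 and 92.1 CPM. The log2 fold change was -0.57 ± 0.16 (95% interval -0.91 to -0.23; edgeR adjusted p = 0.39), the smallest p of the 10 genes and rank 150 of 18965. The actin genes are similar over their coding parts, and how the authors' counting treated reads that fit more than 1 of them is not stated. The number of such reads was not measured.

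Myh11 encodes the smooth muscle myosin heavy chain, the most specific marker of this lineage (ENSMUSG00000018830, chromosome 16, 14194527 to 14291408). Values ran from 90.7 over a median of 121 to 233 CPM in AVF-CKD and from 108 over 159 to 183 CPM in sham. The 3 lowest AVF-CKD libraries lay below all sham libraries, while AVF-CKD 5 stood above all of them. Its log2 fold change was -0.16 ± 0.23 (edgeR adjusted p = 0.859), and -0.39 ± 0.18 without AVF-CKD 5 (edgeR adjusted p = 0.501). It was -0.073 without AVF-CKD 4 and -0.089 without AVF-CKD 2.

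Among the proteins that bind actin, Tagln encodes transgelin or SM22 alpha, which bundles actin filaments (ENSMUSG00000032085, chromosome 9, 45929628 to 45936058). It ran from 315 over a median of 459 to 598 CPM in AVF-CKD and from 422 over 657 to 775 CPM in sham, with 4 sham libraries above every AVF-CKD library. This gave -0.43 ± 0.18 on the log2 scale (edgeR adjusted p = 0.503). On the other strand, GENCODE M21 models cover 67.9% of its exonic bases, most of them in the antisense model Gm48529, and the TruSeq v2 kit keeps no strand information. Reads of Tagln and of its antisense model therefore cannot be told apart.

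Cnn1 encodes calponin 1, which restrains the myosin ATPase on actin (ENSMUSG00000001349, chromosome 9, 22099281 to 22109630). It ran from 27.1 over a median of 39.7 to 57.6 CPM in AVF-CKD and from 42.8 over 63.4 to 93.6 CPM in sham. The 3 lowest AVF-CKD libraries lay below every sham library and the 3 highest sham libraries above every AVF-CKD library. Its log2 fold change of -0.71 ± 0.23 (95% interval -1.21 to -0.21; edgeR adjusted p = 0.42) was the most negative of the 10.

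Lmod1 encodes leiomodin 1, which nucleates actin filaments in smooth muscle (ENSMUSG00000048096, chromosome 1, 135324807 to 135368065). Its values were 13.2, 19.8 and 28.2 CPM (lowest, median, highest) in AVF-CKD and 19.8, 24.5 and 36.0 CPM in sham, and 5 of 6 AVF-CKD libraries lay below the sham median. Its fold change was -0.31 ± 0.19 in log2 (edgeR adjusted p = 0.635), and -0.19 ± 0.17 without sham 6.

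Smtn encodes smoothelin, a protein of the actin cytoskeleton found in contractile cells (ENSMUSG00000020439, chromosome 11, 3517523 to 3540612). Its values were 65.7, 82.4 and 109 CPM in AVF-CKD and 61.2, 86.9 and 103 CPM in sham, so the groups lay on top of each other. A log2 fold change of 0.02 ± 0.15 resulted, with a 95% interval of -0.31 to 0.35 (edgeR adjusted p = 0.98). The noncoding model Gm11946 on the opposite strand overlaps 714 of its 4380 exonic bases and had 21.2% to 26.5% of its counts.

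Mylk encodes myosin light chain kinase, also used outside muscle (ENSMUSG00000022836, chromosome 16, 34745210 to 35002420). It ran from 55.6 over a median of 75.4 to 120 CPM in AVF-CKD and from 71.8 over 91.7 to 113 CPM in sham. Both the lowest 2 and the highest of the 12 libraries were of AVF-CKD. In log2 the fold change was -0.21 ± 0.18 (edgeR adjusted p = 0.748), -0.36 ± 0.14 without AVF-CKD 5 and -0.13 without AVF-CKD 2.

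Myocd encodes myocardin, the coactivator that drives the other genes through SRF (ENSMUSG00000020542, chromosome 11, 65176561 to 65269989). Its values were 1.16, 1.48 and 4.35 CPM in AVF-CKD and 1.20, 1.92 and 2.60 CPM in sham. The highest value was that of AVF-CKD 5, and 2 AVF-CKD libraries stood above all sham libraries. In log2 its fold change was 0.14 ± 0.33 (edgeR adjusted p = 0.926) and -0.21 ± 0.26 without AVF-CKD 5, so its sign rested on that library. Its 95% interval ran from -0.56 to 0.85.

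Des encodes desmin, the intermediate filament protein of all muscle types, skeletal included (ENSMUSG00000026208, chromosome 1, 75360329 to 75368579). It ran from 90.5 over a median of 327 to 957 CPM in AVF-CKD and from 98.4 over 290 to 804 CPM in sham. The log2 fold change was 0.19 ± 0.56 (edgeR adjusted p = 0.942), with a 95% interval from -1.03 to 1.41. Without AVF-CKD 2 the fold change was -0.27 ± 0.53, without sham 3 it was -0.0036 ± 0.55, and without sham 4 it was 0.62.

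**Figure D2:**
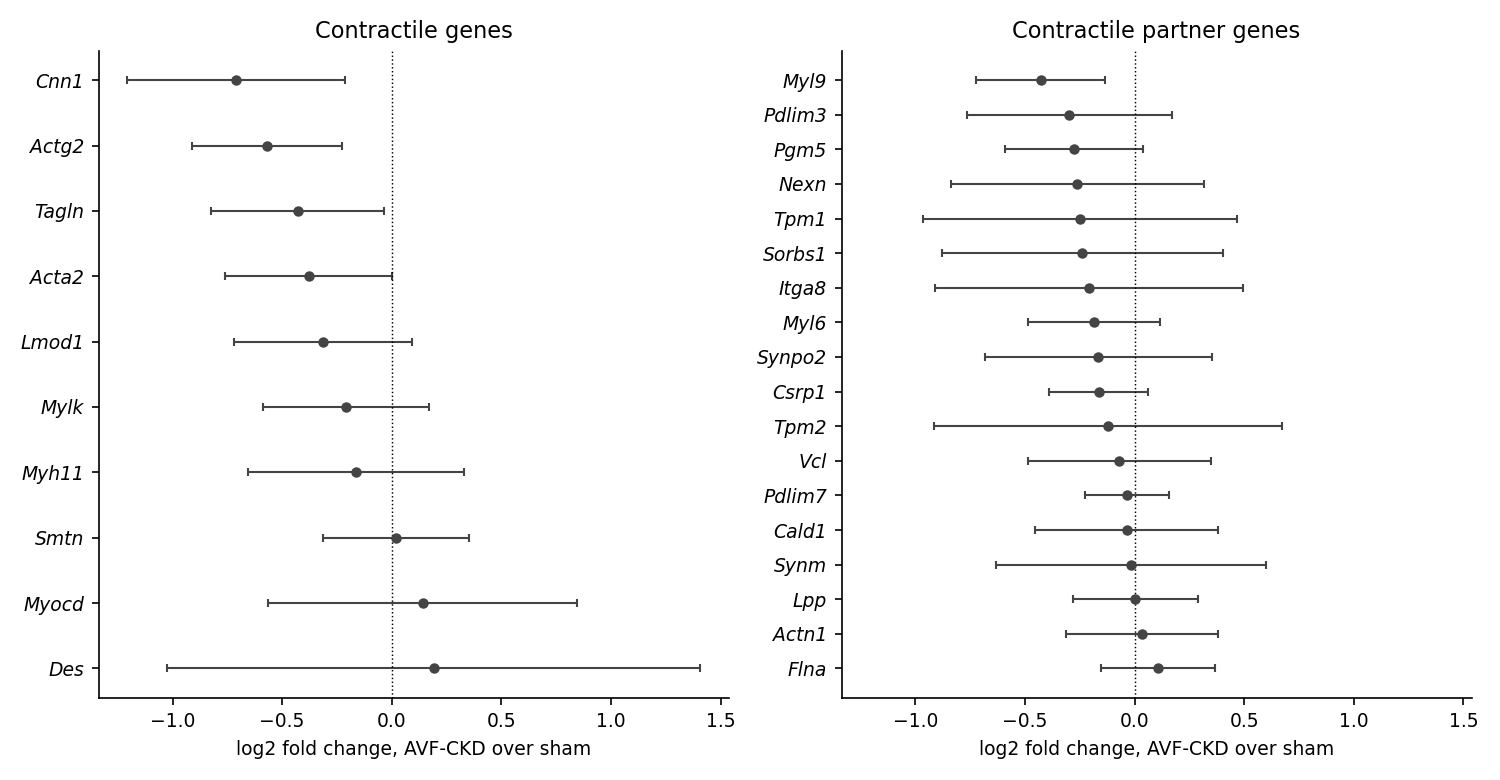
Log2 fold changes of AVF-CKD over sham (x axis) with 95% intervals from the edgeR fit, for the 10 contractile genes (left) and 18 partner genes of the same apparatus (right). Most points lie left of 0, from -0.71 for Cnn1 to 0.19 for Des on the left and from -0.43 for Myl9 to 0.11 for Flna on the right.

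Across libraries Des was higher where skeletal muscle markers were higher, and the other 9 genes correlated positively with each other to differing degrees. All 36 pairs among the 9 genes other than Des had positive Pearson correlations of log2 CPM over the 12 libraries (0.358 to 0.944, median 0.72), and all 9 pairs with Des were negative (-0.663 to -0.139). The adjusted permutation p of Pearson's r was below 0.05 in 22 of the 36 pairs and in 1 of the 9 pairs with Des. Smtn passed with 2 of the other 8 genes and Myocd and Acta2 with 4 each. The Des pair that passed was that with Myh11 (r = -0.663, adjusted permutation p = 0.0419). By rank it did not pass (Spearman coefficient -0.5245, adjusted permutation p = 0.122), and r was -0.7825 without the 2 libraries farthest from the median. The closest pair was Acta2 with Tagln (r = 0.944, Spearman coefficient 0.923; permutation p = 1e-05, the smallest that 100000 draws can give; adjusted p = 0.000225 over 45 pairs; r = 0.958 without the 2 libraries farthest from the median). Acta2 and Actg2 reached r = 0.942 (Spearman coefficient 0.944, adjusted permutation p = 0.000225; r = 0.888 without the 2 farthest), and r was 0.949 within AVF-CKD and 0.97 within sham. Myocd and Mylk reached r = 0.799 (Spearman coefficient 0.797, adjusted permutation p = 0.00641; r = 0.75 without the 2 farthest). These values share their libraries and scaling, and all pairs of the 10 genes were computed. The share of pairs that pass among all genes tested was not computed, so the counts cannot be read as particular to these genes. The 12 libraries span both groups, so a group difference shared by a pair also enters its r.

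Libraries were spread widely in both groups, and the sum of the 9 genes other than Des had an SD of 362 CPM in AVF-CKD and 404 CPM in sham. AVF-CKD 4 was the lowest of its group for 5 genes (Acta2, Myh11, Tagln, Lmod1 and Actg2) and AVF-CKD 3 the highest for 3 (Acta2, Tagln and Cnn1). AVF-CKD 5 was the highest for Myh11, Lmod1, Myocd and Mylk and the lowest for Des. In sham, sham 4 was the lowest for 6 genes and the highest for Des, and sham 6 the highest for 5. Of the 9 genes other than Des, none stood above its 12-library mean in AVF-CKD 1, 2 and 4, and all 9 did in sham 1 and 6. In AVF-CKD 3, 5 and 6 the number was 7, 6 and 7, in sham 3 and 5 it was 7 and 8, and in sham 2 and 4 it was 1.

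**Figure D3:**
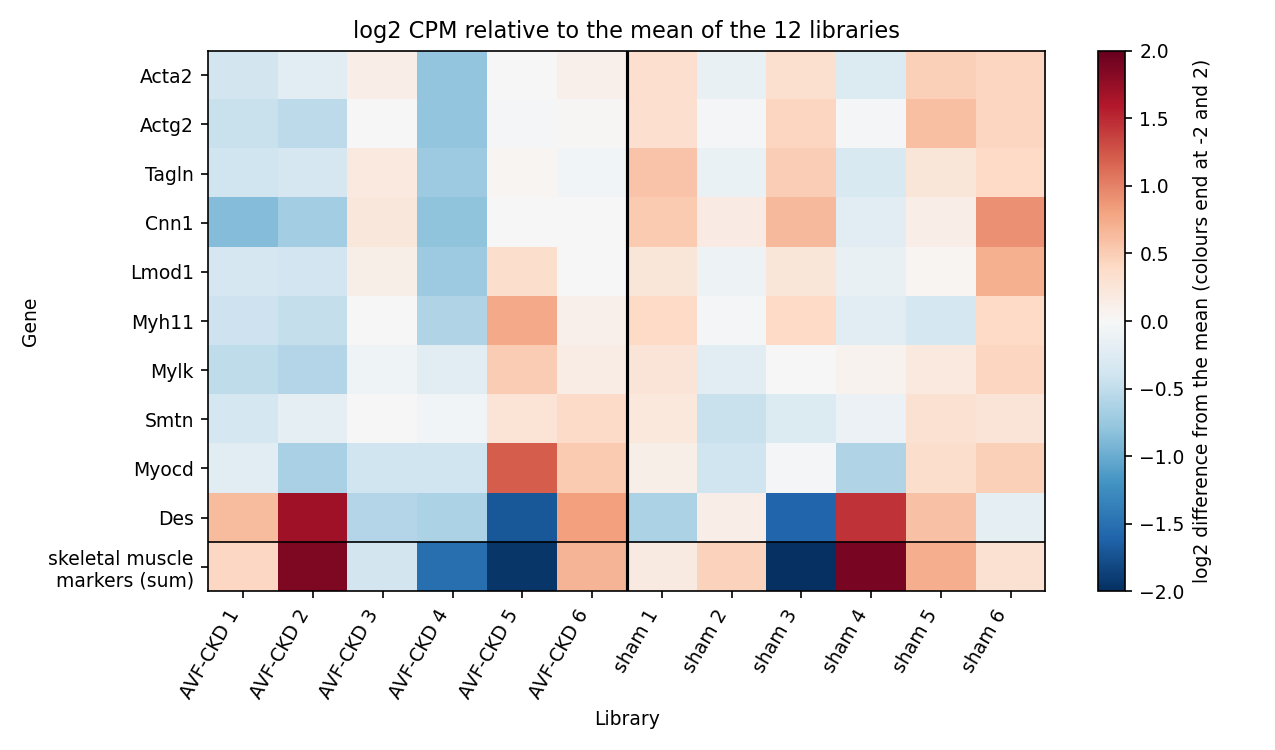
Log2 CPM of each contractile gene and log2 summed CPM of skeletal muscle markers (rows), as the difference from the mean of the 12 libraries (columns, AVF-CKD left of the line). The Des row follows the skeletal muscle row, and the other 9 rows are below their mean throughout in AVF-CKD 1, 2 and 4.

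The summed level of 20 skeletal muscle markers ranged from 1204 to 17042 CPM in AVF-CKD (median 4902) and from 699 to 17398 CPM in sham (median 6087), with 19 of the 20 tested and 0 called. Des correlated with this level at r = 0.932 (Spearman coefficient 0.944, permutation p = 1e-05, adjusted p = 0.0001 over 10 genes; r = 0.882 without the 2 libraries farthest from the median). Within AVF-CKD r was 0.967 and within sham 0.93. The other 9 genes had r from -0.469 (Myh11) to -0.0098 (Smtn), with adjusted permutation p-values from 0.622 to 0.976. In the edgeR fit with the skeletal muscle level as a term, Des gained 0.71 ± 0.08 in log2 CPM per doubling of that level (edgeR adjusted p = 0.000108), and none of the other 9 genes was called. In that fit 1.68% of the genes tested were called higher with the level and 0.0105% lower. With this term the log2 fold changes of AVF-CKD over sham were -0.58 ± 0.16 for Actg2 and -0.73 ± 0.22 for Cnn1 (edgeR adjusted p = 0.47 and 0.481).

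**Figure D4:**
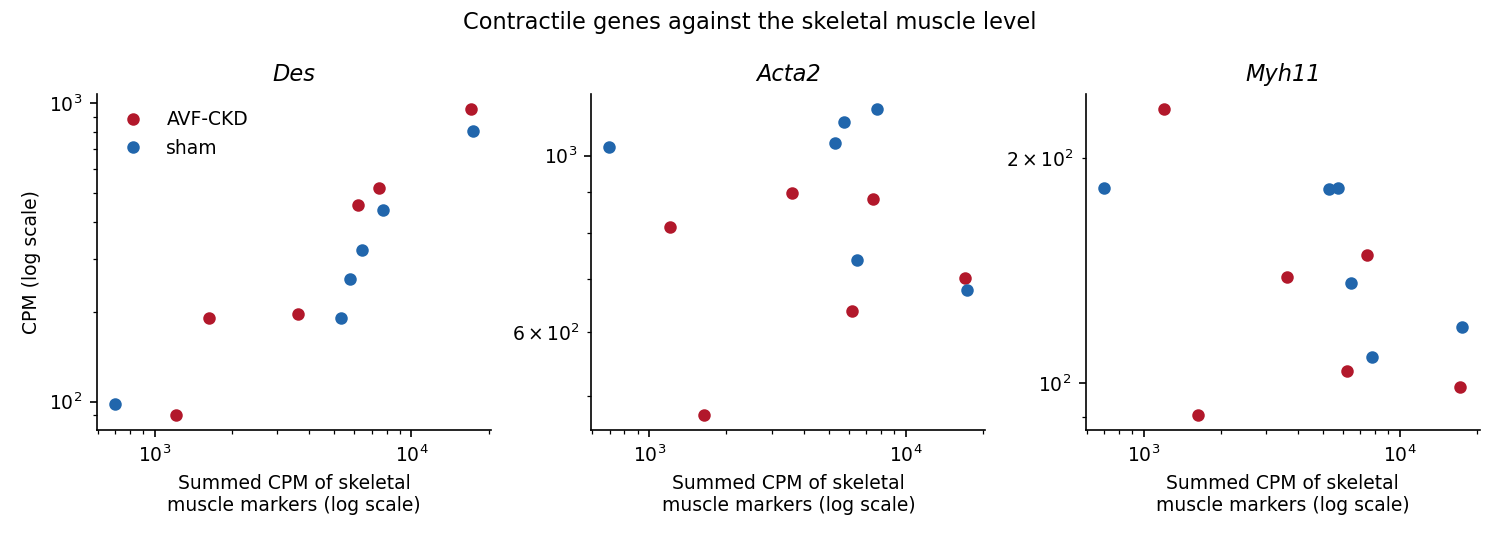
CPM of Des, Acta2 and Myh11 (y axis, log scale, a range of its own in each panel) against the summed CPM of skeletal muscle markers (x axis, log scale), with a point for each AVF-CKD (red) and sham (blue) library. Des is higher where the skeletal muscle level is higher in both groups (r = 0.967 in AVF-CKD and 0.93 in sham), and no such relation passed the test for Acta2 or Myh11.

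Levels relative to Acta2 within a library remove what is common to both genes, and these ratios were chosen after the values were seen. Actg2 had 8.95 to 11.1 counts per 100 Acta2 counts in AVF-CKD (mean 10.3 ± 0.762, SD, n = 6) and 11.0 to 13.1 in sham (mean 11.9 ± 0.752). The difference of -1.54 had a two-sided exact permutation p of 0.00649 over 924 assignments (adjusted p = 0.0584 over 9 ratios). Smtn had 9.38 to 17.1 counts per 100 Acta2 counts in AVF-CKD and 6.74 to 11.3 in sham (exact permutation p = 0.0216, adjusted p = 0.0974), and Cnn1 4.25 to 6.43 and 4.75 to 8.49 (exact permutation p = 0.0498, adjusted p = 0.149). For Tagln the means were 63.0 in AVF-CKD and 65.1 in sham (exact permutation p = 0.545). Thus none of the 9 ratios passed after adjustment.

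**Figure D5:**
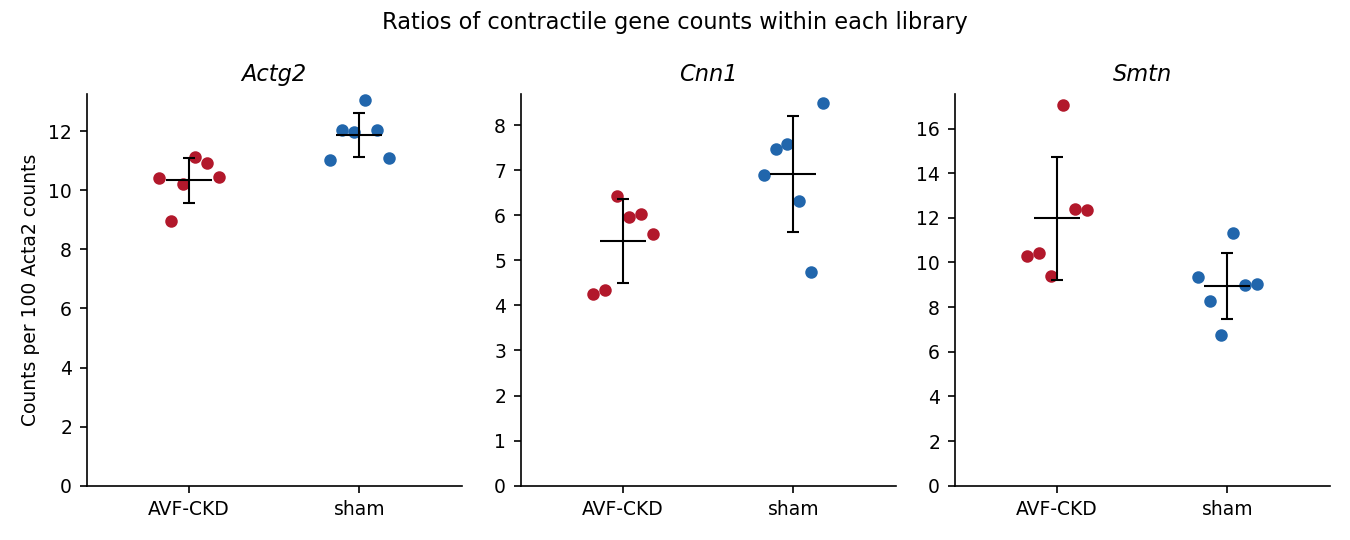
Counts of Actg2, Cnn1 and Smtn per 100 counts of Acta2 (y axis, from 0) in the 6 AVF-CKD (red) and 6 sham (blue) libraries, with the mean and whiskers of 1 SD. Actg2 has 8.95 to 11.1 in AVF-CKD and 11.0 to 13.1 in sham, and Smtn lies higher in AVF-CKD with an adjusted exact permutation p of 0.0974.

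Fits within title numbers 1 to 3 and within 4 to 6, which the labels do not call a batch, gave the same negative sign for Acta2, Actg2, Tagln, Cnn1, Lmod1 and Mylk. Actg2 had log2 fold changes of -0.56 ± 0.18 in numbers 1 to 3 and -0.58 ± 0.25 in 4 to 6, and Cnn1 of -0.83 ± 0.29 and -0.59 ± 0.33. Myh11 had -0.55 ± 0.17 and 0.20 ± 0.35, and Myocd -0.34 ± 0.23 and 0.45 ± 0.46. Des had 1.40 ± 0.63 in numbers 1 to 3 and -0.91 ± 0.67 in 4 to 6. Whether these effects differ between the sets of numbers was not tested.

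The most similar profiles were described by Pearson correlation of log2 CPM over the 12 libraries, among all genes tested and with no test. Myl9 was among the 3 most similar genes of Acta2, Tagln, Cnn1 and Actg2 (r = 0.934, 0.978, 0.919 and 0.931). Acta2 was also close to Tagln and Actg2, as given above. Tagln and Cnn1 both had Adcy4, an adenylyl cyclase gene (r = 0.938 and 0.928), and Cnn1 had the endothelial gene Eng (r = 0.925). Actg2 further had Ss18 (r = 0.93). Myh11 was closest to Itga8, an integrin subunit gene of smooth muscle (r = 0.959), then to Mafk (0.892) and the endothelial phosphatase gene Ptprb (0.885). Lmod1 was closest to Pgm5, a phosphoglucomutase-like gene of muscle adhesions (r = 0.915), Crispld1 (0.91) and Arhgef15 (0.905). Mylk was closest to Nuak1 (r = 0.948), Gulp1 (0.934) and Gucy1b3, a subunit of soluble guanylate cyclase (0.933). Myocd was closest to Arhgef18 (r = 0.92), Ntn4 (0.919) and Ltbp4 (0.905). Smtn was closest to Gm11946 (r = 0.97), the overlapping antisense model, then to Gm20416 (0.956) and Gtf2ird1 (0.949). Des was closest to Klhl40, Myot and Capn3 (r = 0.99, 0.976 and 0.974), all genes of skeletal muscle.

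Most partner genes of the apparatus also had negative fold changes, none of them called. Of 18 contractile partner genes 15 had negative fold changes (median -0.16), against 50.9% of all genes tested, and 0 were called. Only Myl9 had an unadjusted p below 0.05 (1 of 18, against 4.08% of all genes with lower values). Tpm1, Tpm2, Synm, Synpo2 and Nexn were highest in AVF-CKD 2 and sham 4 within their groups. These libraries also had the highest skeletal muscle level of each group. The part of that level in the fold changes of these partners was not tested. Myl9 ran from 140 over a median of 188 to 240 CPM in AVF-CKD and from 200 over 270 to 301 CPM in sham. All 6 AVF-CKD libraries thus lay below the sham median, at -0.43 ± 0.14 in log2 (edgeR adjusted p = 0.41). Flna, which encodes the actin cross-linker filamin A and was the most abundant partner, had a median of 944 CPM in AVF-CKD and 886 CPM in sham (log2 fold change 0.11 ± 0.12), and it had the smallest p of the 3 positive partners.

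Among 12 genes that set the calcium sensitivity of contraction (among them myosin phosphatase subunits) 7 were negative and 5 positive, with a median of -0.0044 and 0 called. Ppp1r14a, which encodes the myosin phosphatase inhibitor CPI-17, averaged 9.85 CPM in AVF-CKD and 14.4 CPM in sham (-0.55 ± 0.18 in log2, edgeR adjusted p = 0.432). Ppp1r12a, the phosphatase targeting subunit, had a log2 fold change of 0.11 ± 0.10. Of 12 regulators of SRF-dependent transcription 6 were negative and 6 positive (median 0.01, 0 called). Srf itself had a log2 fold change of -0.01 ± 0.12, Klf4, a repressor of contractile genes and the most abundant regulator, of -0.02 ± 0.11, and Fhl2 of -0.22 ± 0.13. Klf5 averaged 1.03 CPM in AVF-CKD and 0.579 CPM in sham (0.83 ± 0.35, edgeR adjusted p = 0.502).

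Genes that modulated smooth muscle cells are known to switch on were negative in 4 and positive in 7 of 11 cases (median 0.05, 0 called). Spp1, which encodes osteopontin and is also made by macrophages, averaged 812 CPM in AVF-CKD and 361 CPM in sham (1.17 ± 0.38 in log2, edgeR adjusted p = 0.422). Vim, the most abundant, had 0.01 ± 0.10, and Mgp, an inhibitor of calcification, -0.38 ± 0.24. Of 11 pericyte genes 8 were negative (median -0.10, 0 called), with Rgs5 at -0.34 ± 0.33, Kcnj8 at -0.32 ± 0.19 and Anpep at 0.10 ± 0.14. The summed pericyte level was 766 to 1433 CPM in AVF-CKD (median 962) and 795 to 1507 CPM in sham. AVF-CKD 5, the library with the highest Myh11, was the highest of its group. AVF-CKD 4, with the lowest Myh11, had 1243 CPM, above the median of its group.

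Markers of other cells are given by list, and their part in the results above was not tested. Of 11 endothelial genes 10 were negative (median -0.18), with summed levels of 1302 to 1980 CPM in AVF-CKD and 1548 to 2099 CPM in sham; Emcn had -0.37 ± 0.15, Pecam1 -0.14 ± 0.14 and Erg 0.04 ± 0.20. All 5 myofibroblast genes were negative (median -0.35, summed 3874 to 8456 CPM in AVF-CKD and 5951 to 8284 CPM in sham), led by Postn at -0.45 ± 0.17. Of 9 fibroblast genes 6 were negative (median -0.17, summed 28970.3 to 48960.2 CPM and 31340 to 49218 CPM), with Col3a1 at 0.08 ± 0.19, Dpt at -0.28 ± 0.15 and Col1a1 at 0.20 ± 0.22. Of 8 macrophage genes 5 were positive (Adgre1 was not analysed here; median 0.20, summed 6588 to 11899 CPM in AVF-CKD and 6093 to 12269.9 CPM in sham), with Lyz2 at 0.20 ± 0.23, C1qc at -0.05 ± 0.23 and Itgam at 0.66 ± 0.17. All 8 fat genes were negative (median -1.05, summed 773 to 1577 CPM in AVF-CKD and 978 to 4309 CPM in sham), with Retn at -1.53 ± 0.40 and Cfd at -0.88 ± 0.34. All 8 tested gland and epithelial genes were negative (median -0.65; the other 4 of the list did not pass the filter), and the list of 12 summed to 18.2 to 29.0 CPM in AVF-CKD and 24.3 to 98.5 CPM in sham, with sham 6 the highest and Amy1 at -0.69 ± 0.27. Cardiac genes (9 of 14 tested, 7 positive, median 0.40; Myh6, Myl7, Nppa, Myl2 and Myl3 did not pass the filter) summed to 35.5 to 259 CPM in AVF-CKD and 34.1 to 187 CPM in sham, with Actc1 at 0.36 ± 0.57, Nppb at 1.11 ± 0.39 and Ryr2 at -0.03 ± 0.41. Skeletal muscle genes (14 of 19 negative, median -0.22) included Acta1 at -0.10 ± 0.68, Myh2 at -1.63 ± 0.88 and Tnni1 at 1.27 ± 0.61. None of these genes was called.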

How the data were processed

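RNA of 12 vein samples was extracted with Trizol and a Qiagen kit and made into TruSeq RNA v2 libraries, per the labels' protocols. The submitters' processing notes name GRCm38, TopHat2 2.1.0, featureCounts and edgeR without their roles. No source used here gives the annotation, strandedness or filtering of reads. Whole-number deposited counts per gene were tested unchanged. The authors' deposited RPKM values were not tested, and CPM per kilobase was computed from the counts with the length in the deposited table.

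Counts were filtered with filterByExpr, TMM-scaled and tested with edgeR 4.0.16 (R 4.3.3), group as the only term, all 12 libraries, adjusted over 18965 genes and called below 0.05. Log2 CPM used a prior count of 2. The contractile genes and all lists were chosen with earlier results of these data known. Srf, Myl6, Vcl, Tpm1, Tpm2, Synm, Synpo2 and Nexn were added after their values were seen. The other genes outside the 10 were named by rule. It took, from each list, the most abundant gene and that with the smallest p in each direction. It also took the 3 genes most correlated with each contractile gene. A result that this rule would name is not reported here. The skeletal muscle coefficient and the ratios to Acta2 were read off after the data were seen. Library pairs differed by more than sampling noise (chi-square from 44.4 to 197 per degree of freedom in 66 pairs). The fit was checked on simulated data. Alternatives were other scaling and filters, DESeq2 1.42.0 and limma 3.58.1 voom with sample weights. Further ones were the title number as a block or a term, a skeletal muscle covariate and leaving out each library.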

Additional observations from a re-analysis of the deposited data

How the results depend on the processing

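With 0 genes called in the main test, DESeq2 called 51 higher and 30 lower. Leaving out each library gave 0 to 1 higher (1 without AVF-CKD 3) and 0 lower, and no contractile gene was called under any of the 22 alternatives. Their median log2 fold change ran from -0.40 without AVF-CKD 5 to -0.16 without sham 6, and was -0.39 with weighted limma voom. Actg2 (-0.66 to -0.49) and Cnn1 (-0.87 to -0.58) kept an unadjusted p below 0.05 under all 22, with lowest adjusted p-values of 0.0813 and 0.146 (DESeq2) and highest of 0.698 and 0.7; Tagln did under 16 and Acta2 under 8. That unadjusted threshold was passed by 5 of the 10, all lower in AVF-CKD, without AVF-CKD 5, with weighted limma voom and with the replicate block. Of all genes tested, 4.45%, 4.92% and 4.7% passed it with lower values in these settings, in the same order. The signs of Smtn and Myocd reversed with weighted limma voom (-0.029 and -0.11), which differs from the main test in both method and library weights. When single libraries were left out, Smtn ran from -0.061 to 0.082, Des from -0.27 to 0.62 and Myocd from -0.21 to 0.26, and the cause was not tested. The title numbers were not taken to pair the samples, since the labels do not say so and deviations of same-numbered libraries correlated at over 0.1 in 3 of 6 pairs (-0.109 to 0.277); 2 of 6 AVF-CKD libraries correlated best with their own number. With the number as a replicate block 0 genes were called higher and 0 lower, 0 contractile genes were called, and Actg2 was at -0.58 ± 0.07 (SE; edgeR adjusted p = 0.312; SE 0.16 without the block), Acta2 at -0.38 ± 0.10 and Cnn1 at -0.73 ± 0.15 (edgeR adjusted p = 0.418 for both). Depth limits Myocd, with 45 to 192 counts per library.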

Other observations

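In the same 250-base promoter windows, 16 of the 18 contractile partner genes and 6 of the 12 regulators were matched. Strict CArG-box letters were found for Myl9, Myl6 and Vcl among the partners and for Srf and Fhl2 among the regulators, against 1.47% of all windows. A gene was counted if any of its windows matched, so this share of windows is not a share of genes. Srf held CCATATAAGG and CCATAAAAGG, at 82 and 62 bases before its start, and Fhl2 held CCAAAAAAGG and CCTTATATGG, at 96 and 31 bases. Myl6, which encodes the essential light chain, held CCTTATATGG at 50 bases and had a log2 fold change of -0.19 ± 0.14 (SE). Vcl, the vinculin gene, held CCTTATAAGG at 227 bases and had -0.07 ± 0.19. These are matches of letters, chosen after the data were seen, and no binding was measured.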
